A study of Mus musculus with 48 samples.

Results

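The question was whether hepatocytes without p110α, the catalytic subunit of phosphoinositide 3-kinase encoded by *Pik3ca*, answer a fast in the same way as hepatocytes that have it. On control (CTRL) diet, 4 groups of 6 male mice bear on it, fed or fasted, with 1 liver array per mouse, so that 24 of the 48 samples of the series were used here, chosen by the genotype, diet and state in their labels. The *p110α*hep-/- mice carried 2 floxed *p110α* alleles and the albumin-Cre transgene, which is active in hepatocytes, and the *p110α*hep+/+ mice were floxed littermates without Cre. Both alleles were therefore floxed in every mouse compared, and Cre was present in 1 genotype. Mice were 12 weeks old when the diets started, ate CTRL diet for 12 weeks, and were killed at zeitgeber time 16, in the dark phase, after feeding at will or after a 24 h fast. The other 24 samples are the same 4 groups on high-fat diet (HFD). Liver was taken whole, so fewer cells of a type and less RNA per cell cannot be told apart.

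For each gene, the fasting change was the fasted minus the fed level in mice of 1 genotype, in log2 units. The interaction was the fasting change in *p110α*hep-/- mice minus that in *p110α*hep+/+ mice. A positive value means a larger rise or a smaller fall in *p110α*hep-/- mice, and a negative value the reverse. Levels are normalized log2 signals of the array.

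As background, feeding raises insulin, which acts through phosphoinositide 3-kinase and AKT to hold the transcription factor FOXO1 out of the nucleus and to activate SREBP-1c, so that the fed liver makes fatty acids and glycogen and restrains glucose output. During a fast, insulin falls, fatty acids from adipose tissue reach the liver, and the nuclear receptor PPARα turns on genes for fatty acid oxidation and ketone body production. The fasting liver also stores part of the incoming fatty acids in lipid droplets.

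On the 24 arrays, 52.3% to 59.0% of spots were well above background, and 20486 genes were tested. The *Pik3ca* probe did not separate the genotypes. Its level was 12.79 to 13.09 in fed and 13.09 to 13.44 in fasted *p110α*hep+/+ mice, against 13.02 to 13.33 and 13.27 to 13.55 in *p110α*hep-/- mice, and its interaction was -0.31 (standard error 0.11, limma adjusted p = 0.106). The deletion removes a pair of exons, and the position of the probe against them was not examined. This probe gives no check of the deletion, and directions below take the labels as given. The 8 hepatocyte markers measured had a mean level of 17.77 to 17.89 in the 24 mice. Replicate 2 of the fed *p110α*hep+/+ group stood apart from the other 5 mice of its group, with the lowest *Fasn* level (16.53, against 17.14 to 17.70), the lowest *Acly* level (14.32) and the highest *Pck1* level (16.49, against 13.94 to 15.27). Its array weight of 0.589 was the lowest of the 24, and the counts are also given without it. Replicates 5 and 6 of the fasted *p110α*hep-/- group also stood apart. For 29 of the 67 genes named under the rule given with the methods, both lay outside the range of the other 4 mice, above it for 16 and below it for 13, with *Scd1* at 14.08 and 14.3 against 15.67 to 16.05. Their array weights were 0.752 and 0.6355, and the other 4 had 1.08 to 1.47.

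The interaction was called (adjusted p 0.05 or below and over 1.5-fold) for 269 of the 20486 genes, which is 1.31%. Of these, 128 were positive (0.625% of genes tested) and 141 were negative (0.688%). With the adjusted p alone, 803 genes passed (3.92%), 353 of them positive. Without replicate 2 of the fed *p110α*hep+/+ group, 369 genes were called, 167 positive and 202 negative, among them 261 of the 269. Without replicates 5 and 6 of the fasted *p110α*hep-/- group, left out together after their values were seen, 283 genes were called, 136 positive and 147 negative, among them 222 of the 269, and the 269 genes had the same direction. That fit reuses the other arrays that gave the calls, so the shared direction is a description. Of the 57 called genes named here, 49 were called in that fit, and *Sqle*, *Clec2h*, *Gm4956*, *Abcb11*, *Fads2*, *Inhbe*, *Acacb* and *Cyp1a2* were not. Without array weights the count was 164, and without the filter on dim probes 162. The median interaction over all genes tested was -0.00211, and 10150 of the 20486 values lay above 0.

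The called genes fell into a few shapes when the fasting change of each genotype was set against 1.5-fold. Among the 128 positive genes, 50 exceeded a 1.5-fold increase in *p110α*hep-/- mice alone, 27 increased by more than that in both genotypes, 18 decreased by more than 1.5-fold in *p110α*hep+/+ mice alone, and 13 decreased by more than that in both. Another 4 went down in *p110α*hep+/+ and up in *p110α*hep-/- mice, each by over 1.5-fold, and 16 stayed within 1.5-fold in both. Among the 141 negative genes, 62 decreased by more than 1.5-fold in *p110α*hep-/- mice alone, 20 increased by more than 1.5-fold in *p110α*hep+/+ mice alone, and 51 stayed within 1.5-fold in both. These shapes describe the fitted changes, which were not tested 1 by 1 here.

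**Figure D1:**
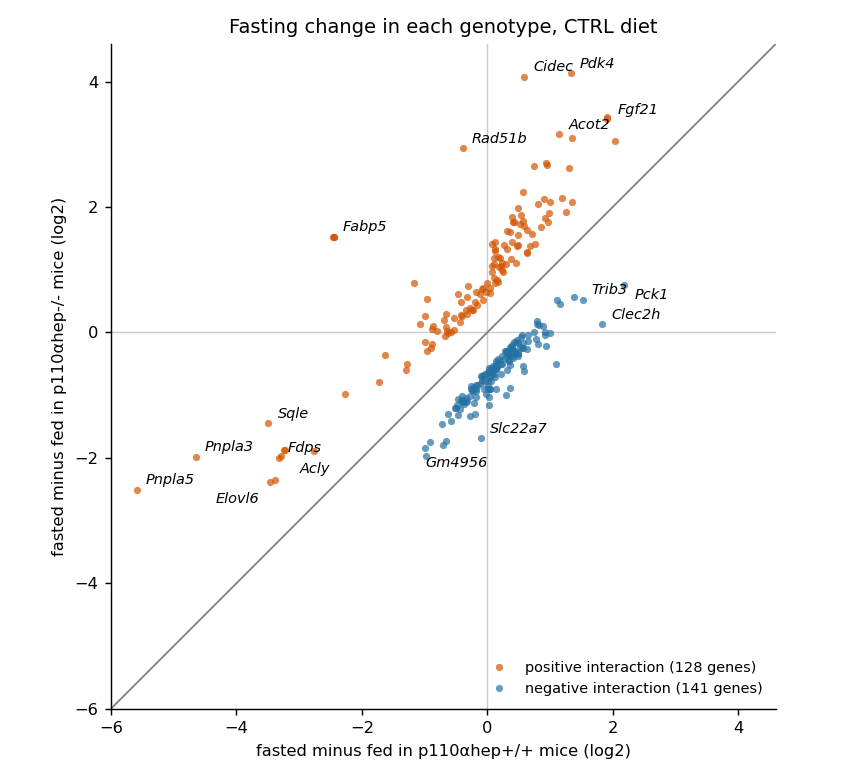
Fasting change (fasted minus fed, log2) in *p110α*hep+/+ mice on the horizontal axis and in *p110α*hep-/- mice on the vertical axis for the 269 called genes, with equal change on the diagonal line. The 128 genes of positive interaction lie above the line, with *Pdk4* and *Cidec* near the top, and the 141 genes of negative interaction lie below it.

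Genes of fatty acid oxidation and ketone body production had positive calls. Of 40 PPARα targets and oxidation genes measured, 8 were called and positive and 0 were called and negative, or 20% against 1.31% of all genes, and 36 of the 40 values lay above 0. With the adjusted p alone, 18 passed, 0 of them negative. The median interaction of the list was 0.38, from a median fasting change of 0.60 in *p110α*hep+/+ mice and 0.99 in *p110α*hep-/- mice. Without replicate 2 of the fed *p110α*hep+/+ group, the list again had 8 positive calls, and likewise without replicates 5 and 6 of the fasted *p110α*hep-/- group. Among the genes past the adjusted p but under 1.5-fold were *Decr1*, *Acaa1a*, *Ucp2*, *Hadha*, *Slc25a20*, *Hadhb*, *Hsd17b4* and *Acadvl*, most of them enzymes of mitochondrial or peroxisomal β-oxidation, with interactions between 0.27 and 0.54.

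*Pdk4*, a kinase that shuts off pyruvate dehydrogenase and so spares glucose, had the largest value of the list. Its lowest, median and highest levels were 7.77, 8.30 and 9.57 in fed and 8.87, 10.17 and 10.53 in fasted *p110α*hep+/+ mice, and 7.47, 8.17 and 9.10 in fed and 10.54, 12.57 and 13.18 in fasted *p110α*hep-/- mice. The fed groups overlapped almost completely, whereas every fasted *p110α*hep-/- mouse lay above every fasted *p110α*hep+/+ mouse. Replicates 5 and 6 of the fasted *p110α*hep-/- group, at 10.56 and 10.54, stayed close to the fasted *p110α*hep+/+ mice, and the other 4 lay between 12.38 and 13.18. The interaction was 2.80 (standard error 0.55, limma adjusted p = 0.00235), and it was 0.32 to 4.13 over the 6 slides and 3.29 without these 2 mice (limma adjusted p = 3.77e-05).

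*Ehhadh*, the peroxisomal bifunctional enzyme of β-oxidation, showed a like shape with less scatter. Its median level was 12.30 in fed and 13.58 in fasted *p110α*hep+/+ mice, and 12.33 in fed and 15 in fasted *p110α*hep-/- mice. The fed groups overlapped (12.11 to 12.61 and 12.11 to 12.55), and the fasted groups did not (12.88 to 14.24 and 14.63 to 15.37). The interaction of 1.33 (standard error 0.25, limma adjusted p = 0.00126) was positive on all 6 slides. *Fgf21*, the fasting hormone made by the liver under PPARα, went from 7.48 to 8.51 in the fed to 9.0 to 10.52 in the fasted *p110α*hep+/+ mice, and from 6.18 to 7.67 to 10.48 to 10.80 in *p110α*hep-/- mice. The 6 fasted *p110α*hep-/- mice were tightly grouped at or above the upper end of the fasted *p110α*hep+/+ range, the fed groups overlapped, and the interaction was 1.52 (standard error 0.33, limma adjusted p = 0.00559).

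Other members of the list differed in where the genotypes were apart. *Vnn1*, which encodes the pantetheinase vanin 1, was lower in fed *p110α*hep-/- mice (8.34 to 9.77) than in fed *p110α*hep+/+ mice (10.40 to 11.70), with no overlap, and the fasted groups overlapped (11.91 to 12.78 and 11.99 to 13.12). Its interaction was 1.75 (standard error 0.31, limma adjusted p = 0.000806). *Pex11a*, a peroxisome proliferation factor, and *Acaa1b*, a peroxisomal thiolase, were likewise apart in the fed state, at 13.83 to 14.35 and 14.89 to 15.15 in fed *p110α*hep-/- mice against 15 to 16.04 and 15.52 to 16.32 in fed *p110α*hep+/+ mice. Their interactions were 1.13 (limma adjusted p = 0.000437) and 0.99 (limma adjusted p = 0.000685).

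The acyl-CoA thioesterases, which release free fatty acids from coenzyme A, formed a cluster of related genes. *Acot2*, the mitochondrial form, had median levels of 9.84 and 10.64 in fed and fasted *p110α*hep+/+ mice and of 8.39 and 11.56 in fed and fasted *p110α*hep-/- mice. The fed and fasted *p110α*hep-/- mice were far apart (7.99 to 8.70 and 10.95 to 11.93), while the ranges of fed and fasted *p110α*hep+/+ mice met (8.70 to 10.20 and 10.09 to 11.41). The interaction was 2.01 (standard error 0.35, limma adjusted p = 0.000685). *Acot1*, the cytosolic form, had an interaction of 1.01 (limma adjusted p = 0.0386), which lost the call in 15 of the 24 fits that left out 1 array. *Acot3* (1.15, limma adjusted p = 0.143) and *Acot4* (0.58, limma adjusted p = 0.133) did not pass, and the genes of this family are similar enough in sequence that probes may share targets.

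Several well-known genes of the same pathway did not pass. *Cpt1a*, which admits long-chain fatty acids to mitochondria, had an interaction of 0.41 (limma adjusted p = 0.0657). *Cyp4a14*, an ω-hydroxylase often used as a readout of PPARα, had a fasting change of 3.70 in *p110α*hep+/+ mice and 3.84 in *p110α*hep-/- mice, and its interaction was 0.14 (standard error 0.58, limma adjusted p = 0.934), with the other sign in 6 alternatives. *Ppara* itself gave 0.12 (limma adjusted p = 0.551).

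**Figure D2:**
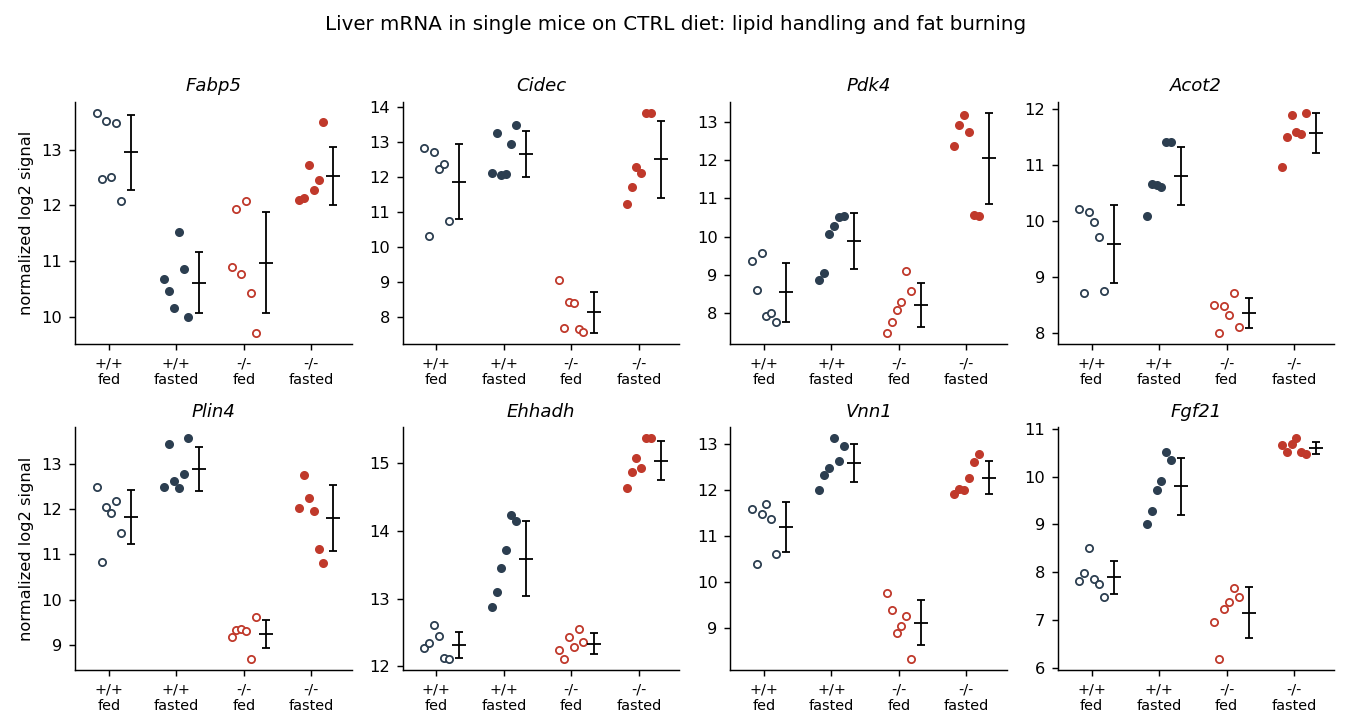
Normalized log2 signal (vertical axes, each on its own scale) of 8 genes in single livers of *p110α*hep+/+ (+/+, dark) and *p110α*hep-/- (-/-, red) mice on CTRL diet, fed (open points) or fasted (filled points), 6 mice per group with the mean and SD beside them. *Cidec*, *Plin4* and *Vnn1* separate the genotypes in fed mice, *Pdk4* and *Ehhadh* separate them in fasted mice, and *Fabp5* changes in opposite directions in the genotypes.

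Lipid droplet genes also had positive calls. Of 17 genes for droplet proteins and lipases, 3 were called and positive and 0 were called and negative, or 17.6% against 0.625% of all genes called positive, the median interaction was 0.53 and 14 values lay above 0. With 1 array left out, 3 to 5 were called, with 5 without replicates 5 or 6 of the fasted or 6 of the fed *p110α*hep+/+ group. *Cidec*, a droplet protein that fuses droplets into larger ones, had levels of 10.31, 12.30 and 12.83 (lowest, median and highest) in fed and 12.07, 12.53 and 13.49 in fasted *p110α*hep+/+ mice, and of 7.58, 8.03 and 9.06 in fed and 11.22, 12.20 and 13.85 in fasted *p110α*hep-/- mice. The fed groups were apart and the fasted groups overlapped. Replicates 5 and 6 of the fasted *p110α*hep-/- group, at 13.85 and 13.84, lay above the other 4 (11.22 to 12.28) and above the highest fasted *p110α*hep+/+ mouse. The interaction was 3.49 (standard error 0.59, limma adjusted p = 0.000378), or 11.3-fold, with 2.08 to 6.08 over the 6 slides, and 3.10 without these 2 mice (limma adjusted p = 0.000619). *Plin4*, a perilipin that coats droplets, had an interaction of 1.77 (standard error 0.39, limma adjusted p = 0.00594), again with fed groups that did not overlap (8.69 to 9.61 in *p110α*hep-/- and 10.84 to 12.49 in *p110α*hep+/+ mice). *Hilpda*, an inhibitor of triglyceride lipolysis, reached 9.26 to 10.19 in fasted *p110α*hep-/- mice against 8.60 to 9.38 in fasted *p110α*hep+/+ mice, and its interaction was 1.21 (standard error 0.19, limma adjusted p = 0.00025). *Plin2* (0.82, limma adjusted p = 0.0597), *G0s2* (1.55, limma adjusted p = 0.0957) and the lipase gene *Pnpla2* (0.53, limma adjusted p = 0.0663) did not pass. *Agpat9*, now named *Gpat3*, an enzyme at the entry of glycerolipid synthesis outside this list, gave 1.73 (standard error 0.30, limma adjusted p = 0.000596), with fed *p110α*hep-/- mice at 7.46 to 8.36 below fed *p110α*hep+/+ mice at 8.93 to 11.06.

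The largest interaction belonged to *Fabp5*, a fatty acid binding protein better known from skin and macrophages. Its levels were 12.08, 13.00 and 13.67 in fed and 9.99, 10.57 and 11.52 in fasted *p110α*hep+/+ mice, and 9.71, 10.83 and 12.08 in fed and 12.09, 12.37 and 13.50 in fasted *p110α*hep-/- mice. The fed and fasted mice of neither genotype overlapped, and the order of the states was opposite in the 2 genotypes. The fasting change was -2.45 in *p110α*hep+/+ mice and 1.53 in *p110α*hep-/- mice, which gave an interaction of 3.98 (standard error 0.40, limma adjusted p = 6.68e-09), or 15.7-fold, and 2.41 to 5.58 over the 6 slides. The probe lies on chromosome 3 of mm9 (chr3:10016185-10016244). NAP114472-1 and NAP111439-1, array features placed on other chromosomes, had interactions on CTRL diet within 0.01 of that of *Fabp5*, though single slides differed by more, and may bind the same transcript, so they were not read as further genes. *Fabp5* was the 1 called gene among 25 genes for fatty acid uptake and lipoproteins (4%, against 1.31% of all genes). The median interaction of this list was 0.16. *Fabp1*, the main fatty acid binding protein of hepatocytes, had an interaction of 0.11 (limma adjusted p = 0.241), and *Fabp4*, that of adipocytes and macrophages, one of 0.69 (limma adjusted p = 0.388).

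De novo lipogenesis, the making of fatty acids from carbohydrate, also had positive calls. Of 22 genes, 7 were called, 7 positive and 0 negative, and 1 of these, *Pnpla3*, passed the filter on dim probes among the 4 groups only through the fed mice, where it was high. The list is therefore read without it, as 6 of 21 genes called (28.6%, against 1.31% of all genes), with a median interaction of 0.53 and 16 values above 0. Over all 22 genes, *Pnpla3* included, the median fasting change was -1.22 in *p110α*hep+/+ mice and -0.90 in *p110α*hep-/- mice, and the median difference between genotypes was -0.70 in fed and -0.09 in fasted mice. These medians were not worked out without *Pnpla3*. Leaving out 1 CTRL diet array gave 3 to 7 calls among the 21 genes, with 3 without replicate 3 of the fed *p110α*hep+/+ group, and leaving out replicates 5 and 6 of the fasted *p110α*hep-/- group gave 4. There were 2 calls without array weights, 3 without the filter on dim probes and 0 within either washing batch. The 6 called in the reported fit were *Acacb*, *Elovl6*, *Acly*, *Gpam*, *Fads2* and *Acss2*.

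*Acly*, which makes cytosolic acetyl-CoA from citrate, had levels of 14.32, 15.28 and 15.59 in fed and 12.24, 12.49 and 12.84 in fasted *p110α*hep+/+ mice, and of 13.98, 14.18 and 14.90 in fed and 12.07, 12.42 and 12.65 in fasted *p110α*hep-/- mice. The fasted groups lay on each other, and the fed groups overlapped through replicate 4 of the *p110α*hep-/- group and 2 mice of the *p110α*hep+/+ group. The interaction was 0.86 (standard error 0.22, limma adjusted p = 0.0199). *Elovl6*, the elongase that makes stearate from palmitate, was different in shape. Its fed levels were close (13.29 to 14.54 in *p110α*hep+/+ and 13.32 to 14.46 in *p110α*hep-/- mice), and its fasted levels met at a single value (10.21 to 11.04 and 11.04 to 12.27), with an interaction of 1.08 (standard error 0.26, limma adjusted p = 0.0136).

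*Gpam*, which attaches the first fatty acid to glycerol 3-phosphate, had an interaction of 0.85 (limma adjusted p = 0.0165), *Fads2*, a desaturase of polyunsaturated fatty acids, one of 0.82 (limma adjusted p = 0.0306, not called in 6 of the 24 fits that left out 1 array), and *Acss2*, which activates acetate, one of 0.79 (limma adjusted p = 0.0101). Dimmer *Fads2* probes gave 0.84, 0.78, 0.74 and 0.08 (limma adjusted p = 0.0199, 0.0524, 0.0799 and 0.913). Those of *Acss2* gave 0.765, 0.46 and 0.11, and that of *Gpam* 1.08. *Acacb*, the mitochondrial acetyl-CoA carboxylase, gave 1.29 (limma adjusted p = 0.0473) on its brightest probe and 0.09 and -0.06 on the 2 dimmer ones, and 16 of the 24 fits that left out 1 array did not call it. Fatty acid synthase, encoded by *Fasn*, had a fasting change of -4.47 in *p110α*hep+/+ mice and -3.73 in *p110α*hep-/- mice, and its interaction of 0.74 (standard error 0.27) did not pass (limma adjusted p = 0.118). The same was true of *Srebf1*, which encodes SREBP-1c (0.22, limma adjusted p = 0.739), of the malic enzyme gene *Me1* (0.53, limma adjusted p = 0.407) and of the desaturase gene *Scd1* (-0.30, limma adjusted p = 0.697, and 0.057 without replicates 5 and 6 of the fasted *p110α*hep-/- group).

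*Pnpla3* and *Pnpla5*, neighbouring genes of the patatin-like lipase family, had values of 2.67 (standard error 0.45, limma adjusted p = 0.000363) and 3.08 (standard error 0.45, limma adjusted p = 8.14e-05). Fed *p110α*hep+/+ mice had *Pnpla3* at 8.12 to 10.87 and fed *p110α*hep-/- mice at 6.17 to 8.12. In fasted mice the probe was well above background on 1 of 6 *p110α*hep+/+ and 0 of 6 *p110α*hep-/- arrays, and that of *Pnpla5* on 2 of 6 and 0 of 6. The difference between fed and fasted *p110α*hep-/- mice is therefore a bound, at least 3.47-fold for *Pnpla3* and at least 5.27-fold for *Pnpla5*. It is set against the lowest signal above background on each array, and the size of both interactions on these probes depends on that floor. A dimmer *Pnpla5* probe, well above background on all 24 arrays, gave 2.02 (standard error 0.32, limma adjusted p = 0.00025). A dimmer *Pnpla3* probe, above background on 13 of the 24, gave 1.87 (limma adjusted p = 5.26e-05).

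Cholesterol synthesis, driven in liver by SREBP-2, was the next list. Of 25 genes for synthesis and uptake, 4 were called and positive and 0 were called and negative, or 16% against 0.625% of all genes called positive, the median interaction was 0.40 and 21 values lay above 0. Leaving out 1 array gave 2 to 5 calls, with 2 without replicates 1, 3 or 5 of the fed *p110α*hep+/+, 5 or 6 of the fasted *p110α*hep+/+ or 5 or 6 of the fed *p110α*hep-/- group. *Fdps*, farnesyl diphosphate synthase, had levels of 13.82, 14.51 and 14.90 in fed and 10.71, 11.27 and 11.65 in fasted *p110α*hep+/+ mice, and of 12.34, 12.72 and 13.07 in fed and 10.27, 10.76 and 11.34 in fasted *p110α*hep-/- mice. The fed groups were apart, the fasted groups overlapped, and the interaction was 1.32 (standard error 0.32, limma adjusted p = 0.013). *Sqle*, squalene epoxidase, gave 2.04 (standard error 0.59, limma adjusted p = 0.039) with wide scatter, from 9.52 to 11.25 in fed *p110α*hep+/+ mice and from 6.33 to 9.11 in fed *p110α*hep-/- mice, and it was not called in 13 of the 24 fits that left out 1 array. *Hsd17b7*, a 3-ketosteroid reductase of the pathway, had small ranges and opposite fasting changes (-0.43 and 0.49), with an interaction of 0.92 (standard error 0.14, limma adjusted p = 0.000187). *Nsdhl*, which acts in the same demethylation steps, gave 0.93 (limma adjusted p = 0.0308, not called in 9 of the 24 fits). *Srebf2*, which encodes SREBP-2, did not pass (0.20, limma adjusted p = 0.40).

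**Figure D3:**
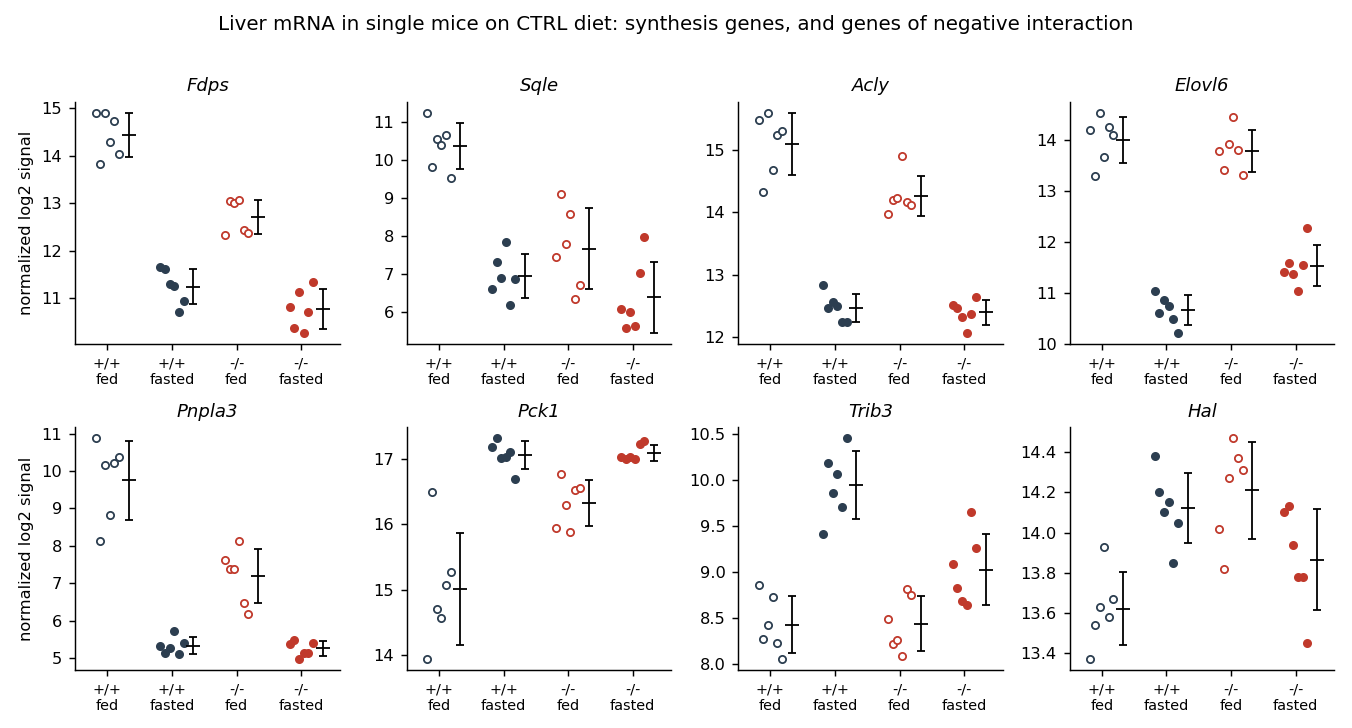
Normalized log2 signal (vertical axes, each on its own scale) of 8 genes in single livers, drawn as for the lipid handling genes, with the mean and SD of 6 mice. *Fdps*, *Sqle*, *Acly* and *Pnpla3* have their highest mean in fed *p110α*hep+/+ mice, *Pck1* has its lowest mean there, and *Trib3* has its highest mean in fasted *p110α*hep+/+ mice.

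RefSeq promoter windows of build GRCm38.p6 were searched on both strands. A window runs from 250 bases before to 50 bases after a gene start. The letters searched were CCAAT (the box bound by NF-Y), CACGTG (an E-box, bound by ChREBP and other factors), TCACNCCAC (a sterol regulatory element, bound by SREBP), GTAAACA (a forkhead site, bound by FOXO factors) and AGGNCANAGGNCA (a direct repeat spaced by 1 base, bound by PPARα with RXR), and matches may overlap. Windows were found for 48 of the 67 genes named here under the rule given with the methods. CCAAT stood in the windows of 17 of 18 cholesterol genes (94.4%) and 12 of 18 lipogenesis genes (66.7%), 50% of the PPARα list and 31.2% of the lipid droplet genes, against 41.1% of all 27025 genes with a window, 43.4% of called genes of positive interaction and 27.3% of those of negative interaction. The E-box stood in 22.2% of the cholesterol genes, 16.7% of the lipogenesis genes, 6.67% of the PPARα list and 18.8% of the lipid droplet genes, against 8.09% of all genes, 12% of called genes of positive interaction and 12.5% of those of negative interaction. The sterol regulatory element stood in 5.56% of the cholesterol genes, 5.56% of the lipogenesis genes, 10% of the PPARα list and 0 of the 16 lipid droplet genes, against 1.44% of all genes, 3.61% of called genes of positive interaction and 3.41% of those of negative interaction. The forkhead site stood in 12.5% of the lipid droplet genes, 5.56% of the lipogenesis genes, 0 of the 18 cholesterol genes and 0 of the 30 genes of the PPARα list, and in 6.02% and 3.41% of called genes of positive and negative interaction, against 4.05% of all genes. The direct repeat stood in 0 windows of these 4 lists and of the called genes, and in 0.451% of all genes. A match is a description of letters, and a window without one says nothing about the factor.

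The windows of the called genes *Cidec*, *Hilpda*, *Fads2*, *Pex11a* and *Agpat9* held 0 matches. Those of 6 other called genes, each with at least 1 match, are shown as examples from synthesis, the lipase pair and oxidation. They are *Nsdhl* (chrX:72918271-72918570, plus strand) and *Hsd17b7* (chr1:169969156-169969455, minus strand) of cholesterol synthesis, *Pnpla3* (chr15:84167566-84167865, plus strand) and *Pnpla5* (chr15:84123126-84123425, minus strand), and *Ehhadh* (chr16:21787785-21788084, minus strand) and *Pdk4* (chr6:5496229-5496528, minus strand) of the oxidation list. Capitals mark CCAAT or its reverse ATTGG, the E-box in *Hsd17b7* and *Pnpla5*, and in *Ehhadh* the sterol regulatory element read on the other strand (GTGGTGTGA). *Nsdhl* holds 4 CCAAT matches and *Hsd17b7* holds 3 with 1 E-box. The starts of *Pnpla3* and *Pnpla5* are 44.6 kb apart.
Nsdhl: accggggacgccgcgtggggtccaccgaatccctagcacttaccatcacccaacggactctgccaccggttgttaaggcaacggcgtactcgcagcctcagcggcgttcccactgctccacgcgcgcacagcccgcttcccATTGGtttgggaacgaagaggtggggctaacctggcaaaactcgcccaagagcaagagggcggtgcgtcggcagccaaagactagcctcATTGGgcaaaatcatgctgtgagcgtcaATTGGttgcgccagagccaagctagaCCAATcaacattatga
Hsd17b7: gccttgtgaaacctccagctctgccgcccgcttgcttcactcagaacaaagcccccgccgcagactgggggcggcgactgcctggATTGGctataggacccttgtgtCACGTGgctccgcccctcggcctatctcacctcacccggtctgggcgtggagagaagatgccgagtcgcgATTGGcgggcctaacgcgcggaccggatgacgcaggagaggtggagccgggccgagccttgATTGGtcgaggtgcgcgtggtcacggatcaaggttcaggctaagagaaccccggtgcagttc
Pnpla3: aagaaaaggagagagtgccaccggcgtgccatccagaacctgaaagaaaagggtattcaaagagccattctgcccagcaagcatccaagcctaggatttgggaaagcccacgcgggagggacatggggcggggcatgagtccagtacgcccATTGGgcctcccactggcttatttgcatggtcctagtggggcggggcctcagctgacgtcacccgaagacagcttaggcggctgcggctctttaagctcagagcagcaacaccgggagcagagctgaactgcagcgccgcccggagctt
Pnpla5: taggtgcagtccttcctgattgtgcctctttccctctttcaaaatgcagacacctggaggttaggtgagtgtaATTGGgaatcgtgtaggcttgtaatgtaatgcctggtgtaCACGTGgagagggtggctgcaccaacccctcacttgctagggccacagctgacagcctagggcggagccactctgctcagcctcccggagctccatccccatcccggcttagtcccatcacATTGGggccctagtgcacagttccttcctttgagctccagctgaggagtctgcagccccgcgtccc
Ehhadh: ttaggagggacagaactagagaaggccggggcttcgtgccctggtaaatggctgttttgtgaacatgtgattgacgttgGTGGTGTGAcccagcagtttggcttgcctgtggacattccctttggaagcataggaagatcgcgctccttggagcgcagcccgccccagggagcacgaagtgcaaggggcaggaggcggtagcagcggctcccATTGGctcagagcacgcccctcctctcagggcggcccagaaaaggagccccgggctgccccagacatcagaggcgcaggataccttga
Pdk4: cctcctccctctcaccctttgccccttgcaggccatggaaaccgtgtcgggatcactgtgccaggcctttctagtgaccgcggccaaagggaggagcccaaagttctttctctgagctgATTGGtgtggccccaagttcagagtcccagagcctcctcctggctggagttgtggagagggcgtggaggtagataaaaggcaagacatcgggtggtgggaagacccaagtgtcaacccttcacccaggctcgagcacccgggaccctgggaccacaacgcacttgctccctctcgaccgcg

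Among genes of glucose production, *Pck1*, which encodes the cytosolic phosphoenolpyruvate carboxykinase of gluconeogenesis, was the 1 called gene of 18 (5.56%, against 1.31% of all genes). Its levels were 13.94, 14.89 and 16.49 in fed and 16.70, 17.08 and 17.32 in fasted *p110α*hep+/+ mice, and 15.89, 16.42 and 16.77 in fed and 17.00, 17.04 and 17.28 in fasted *p110α*hep-/- mice. The fasted groups lay at the same level, and the fed *p110α*hep-/- mice lay above 5 of the 6 fed *p110α*hep+/+ mice. The interaction was -1.41 (standard error 0.29, limma adjusted p = 0.00356), and -1.62 without replicate 2 of the fed *p110α*hep+/+ group. *G6pc*, the glucose 6-phosphatase, had an interaction of 0.26 (limma adjusted p = 0.70), and the median of the list was 0.09.

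Of 20 FOXO targets and genes that insulin represses, 1 was called and positive (*Txnip*, an inhibitor of thioredoxin and of glucose uptake, 0.95, limma adjusted p = 0.0199) and 1 was called and negative (*Pck1*). That is 10% called, against 1.31% of all genes. *Txnip* was not called without replicate 3 of the fed or of the fasted *p110α*hep-/- group, and 1 to 3 negative calls were made with 1 array left out. *Igfbp1*, a classical FOXO1 target that binds insulin-like growth factors, had a fasting change of 3.39 in *p110α*hep+/+ mice and 2.02 in *p110α*hep-/- mice. Its fed *p110α*hep+/+ levels were widely scattered (9.46 to 13.93), and the interaction of -1.37 (standard error 0.63) did not pass (limma adjusted p = 0.235). *Igfbp2*, of the same family, gave -0.53 (limma adjusted p = 0.263). *Enho*, which encodes adropin, was at 9.66 to 11.79 in fed and 9.92 to 11.27 in fasted *p110α*hep+/+ mice and at 12.89 to 13.88 and 13.05 to 13.94 in *p110α*hep-/- mice, and its interaction was -0.31 (standard error 0.40, limma adjusted p = 0.735). *Sesn3* (-0.58, limma adjusted p = 0.00179) passed the adjusted p but not the fold threshold.

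Among 28 genes of insulin signalling, *Trib3*, a pseudokinase that binds AKT, was the 1 called gene (3.57%, against 1.31% of all genes). With 1 CTRL diet array left out, 1 to 2 genes of this list were called and negative and 0 to 1 called and positive, with 2 negative without replicate 2 of the fed *p110α*hep+/+ group. *Trib3* was at 8.05 to 8.85 in fed and 9.41 to 10.45 in fasted *p110α*hep+/+ mice, and at 8.08 to 8.81 in fed and 8.63 to 9.65 in fasted *p110α*hep-/- mice, so that states were apart in *p110α*hep+/+ mice and overlapped in *p110α*hep-/- mice. The interaction was -0.996 (standard error 0.24, limma adjusted p = 0.0108). *Irs2*, an insulin receptor substrate, gave -1.05 (limma adjusted p = 0.104). Of the 21 genes of glucose use, *Rpia* of the pentose phosphate pathway was called (0.71, limma adjusted p = 0.0102), or 4.76% against 1.31% of all genes. Of 14 glycogen genes, 0 were called in the limma fit and 5 had an unadjusted p under 0.05, with *Gys2*, glycogen synthase 2, past the adjusted p alone (0.52, limma adjusted p = 0.0379).

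Secreted factors went both ways. Of 20 hepatokines, 3 were called and positive, *Fgf21*, *Inhbe* and *Inhbb*, and 1 was called and negative, *Lect2*. That is 20% called, against 1.31% of all genes. Without replicates 5 and 6 of the fasted *p110α*hep-/- group, 2 were called and positive and 1 was called and negative. *Inhbb*, the activin βB subunit, went from medians of 7.47 to 8.56 with fasting in *p110α*hep+/+ mice and from 7.30 to 9.39 in *p110α*hep-/- mice (interaction 1.08, standard error 0.26, limma adjusted p = 0.0141). *Inhbe*, the activin βE subunit, was at a median of 12.39 in both states of *p110α*hep+/+ mice and at 11.17 fed and 12.54 fasted in *p110α*hep-/- mice (1.09, limma adjusted p = 0.0476), and its call was lost in 16 of the 24 fits that left out 1 array. *Lect2*, a leukocyte chemotactic factor of hepatocytes, was lowest in fasted *p110α*hep-/- mice (13.01 to 13.31, against 13.82 to 14.22 in fasted *p110α*hep+/+ mice), with an interaction of -0.66 (standard error 0.14, limma adjusted p = 0.00557).

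Drug-metabolizing enzymes had calls of the other sign. Of 17 genes, 3 were called and negative and 0 were called and positive, or 17.6% against 0.688% of all genes called negative, with a list median of -0.32, and 1 to 4 were called with 1 array left out, the lowest without replicate 3 of the fed *p110α*hep+/+ group. These were *Cyp2c50* (-0.82, limma adjusted p = 0.0151, and -0.38 on a dimmer probe), *Cyp2c54* (-0.79, limma adjusted p = 0.0222) and *Cyp1a2* (-0.74, limma adjusted p = 0.0429), and *Cyp1a2* was not called in 17 of the 24 fits that left out 1 array. *Cyp2c50* and *Cyp2c54* are close paralogs, and their probes may share targets. *Abcb11*, the bile salt export pump, was the 1 called gene of 23 in bile acid transport, or 4.35% against 1.31% of all genes. Its interaction was -0.71 (limma adjusted p = 0.0312, not called in 8 of the 24 fits that left out 1 array), with fasted *p110α*hep-/- mice at 12.52 to 13.20 below fasted *p110α*hep+/+ mice at 13.33 to 13.91. *Hal*, histidine ammonia-lyase, was the 1 called gene of 28 in amino acid catabolism and the urea cycle (3.57%, against 1.31% of all genes). Its interaction of -0.83 (standard error 0.16, limma adjusted p = 0.00253) came from a fasting change of 0.49 in *p110α*hep+/+ mice and -0.33 in *p110α*hep-/- mice.

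The 12 most negative interactions among called and well-detected genes, *Pck1* included, ranged from -1.70 to -1.10 and were of mixed function. *Clec2h*, a C-type lectin, had a median of 7.59 in fed and 9.40 in fasted *p110α*hep+/+ mice without overlap and lay between 6.31 and 9.21 in *p110α*hep-/- mice, for an interaction of -1.70 (standard error 0.51, limma adjusted p = 0.0487) that was lost in 16 of the 24 fits that left out 1 array. *Arl4d*, a small GTPase of the ARF family, gave -1.60 (limma adjusted p = 0.0127), and *Slc22a7*, the organic anion transporter OAT2, -1.59 (limma adjusted p = 0.0284), with fasted *p110α*hep-/- mice at 10.98 to 11.62 and the other 3 groups together between 11.61 and 13.77. *Slc22a7* was not called in 6 of the 24 fits that left out 1 array, and it was -2.60 in washing batch 1 and -0.91 in washing batch 2. *Car1*, a carbonic anhydrase, gave -1.19 (limma adjusted p = 0.00165) on its brightest probe and -1.22 on a dimmer one. *Rnd1*, a small GTPase, gave -1.15 (limma adjusted p = 0.00371), and *Trim7*, a ubiquitin ligase, -1.10 (limma adjusted p = 0.00556). *Gm4956* (-1.10, limma adjusted p = 0.0409, not called in 14 of the 24 fits), *2210039B01Rik* (-1.30, limma adjusted p = 0.013), *Gm32872* (-1.26, limma adjusted p = 0.00886) and AK139043 (-1.18, limma adjusted p = 0.00807) have no role that could be stated. The last of the 12 is a further, unnamed array feature on chromosome 3 (-1.10, limma adjusted p = 0.00581).

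Genes near background need separate words. Of the 269 called genes, 241 were well above background on at least 5 of 6 arrays in each of the 4 groups, and 10 had a group with 0 such arrays. Beside *Pnpla3* and *Pnpla5*, these include *Rtbdn*, a riboflavin-binding protein, detected on 0 of 6 fed and 5 of 6 fasted *p110α*hep+/+ arrays and on 1 of 6 and 6 of 6 *p110α*hep-/- arrays. Its level in fasted *p110α*hep-/- mice was 5.96 to 8.04, and another of its probes gave an interaction of -0.04. *Chrna4*, a nicotinic receptor subunit, was detected on all 6 fed *p110α*hep+/+ arrays and on 2, 1 and 0 of 6 in fasted *p110α*hep+/+, fed *p110α*hep-/- and fasted *p110α*hep-/- mice. The transcript ENSMUST00000167899 was detected on 6 of 6 fasted arrays in both genotypes and on 0 and 2 of 6 fed arrays. *2310061N02Rik* was detected on 5 of 6 fasted *p110α*hep-/- arrays, 1 of 6 fed *p110α*hep-/- arrays and 0 of 12 *p110α*hep+/+ arrays. Among the 4 groups, these genes passed the filter only through groups in which they were high, so their calls are not read as a size of interaction. *Rad51b*, a DNA repair gene, was well detected but scattered, from 7.10 to 10.76 in fed and 8.70 to 11.99 in fasted *p110α*hep-/- mice, and its interaction of 3.33 (standard error 0.75, limma adjusted p = 0.00687) had that sign on 4 of the 6 slides.

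**Figure D4:**
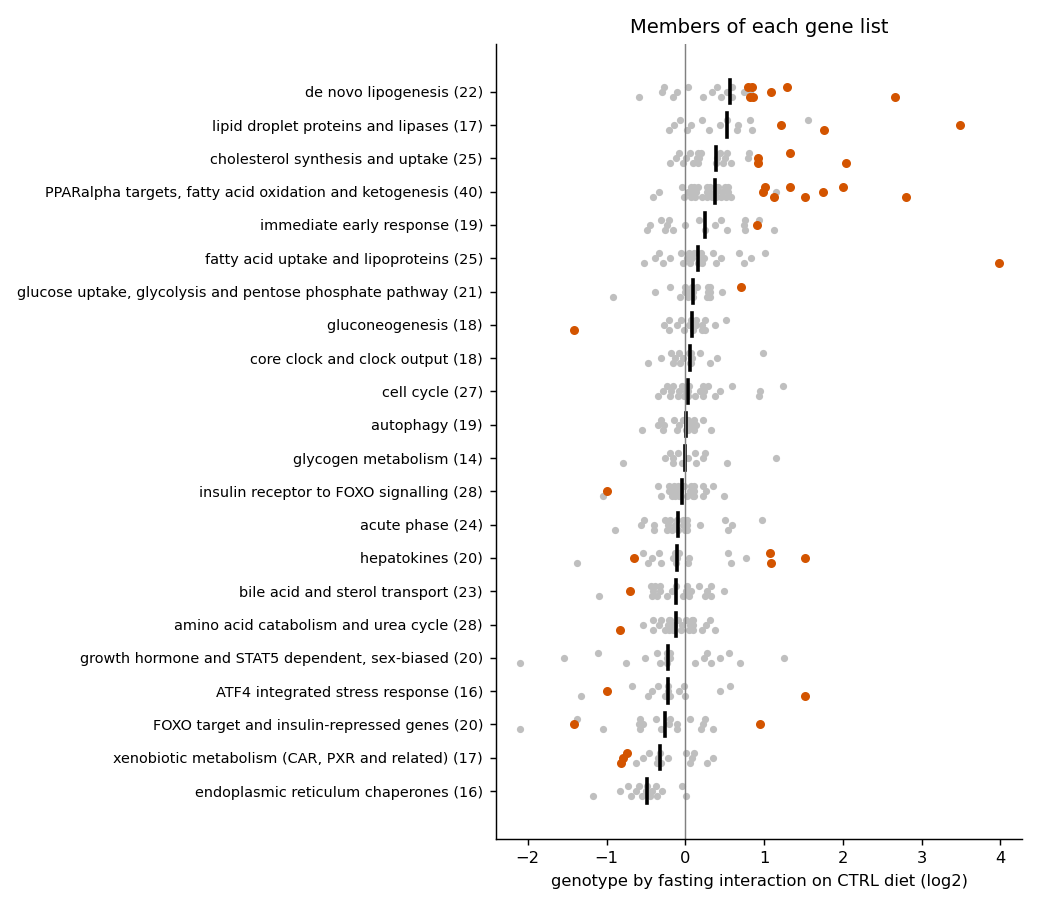
Interaction on CTRL diet (log2, horizontal axis) of each measured member of 22 gene lists, with the number of members in parentheses, called genes in orange, other genes in grey and the list median as a black bar. Calls of positive interaction gather in lipogenesis, lipid droplets, cholesterol synthesis and PPARα targets, and 15 of 16 endoplasmic reticulum chaperones lie below 0 with 0 calls.

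Other lists showed few or 0 calls. The 16 chaperones of the endoplasmic reticulum had a median interaction of -0.49, 15 of them below 0, but 0 were called in the limma fit and 0 passed the adjusted p, with 8 at an unadjusted p under 0.05, and 1 was called without replicate 4 of the fasted *p110α*hep-/- group. *Sdf2l1* was lowest at -1.17 (limma adjusted p = 0.197), and *Hspa5*, the main chaperone of this compartment, gave -0.62 (limma adjusted p = 0.277). The 16 genes of the ATF4 stress list had 1 positive (*Fgf21*) and 1 negative (*Trib3*) call, or 12.5% against 1.31% of all genes. Of 19 immediate early genes, *Btg2*, an antiproliferative gene, was the 1 call (5.26% of the list). Its interaction was 0.91 (limma adjusted p = 0.0309), and the call was lost in 6 of the 24 fits that left out 1 array. Lists for the clock, growth hormone and STAT5, the acute phase, autophagy, the cell cycle and glycogen had 0 calls in the limma fit. With 1 CTRL diet array left out, the acute phase and glycogen lists had 0 to 1 positive calls, autophagy 0 to 1 negative calls, and growth hormone 0 to 1 in each direction, and the clock and cell cycle lists had 0. Without replicate 2 of the fed *p110α*hep+/+ group, the acute phase list had 1 positive and autophagy 1 negative call. Without replicates 5 and 6 of the fasted *p110α*hep-/- group, growth hormone had 1 positive call. Together with the chaperones these lists hold 138 genes, of which 34 had an unadjusted p under 0.05. The share of all genes at that p was not worked out, so unadjusted counts of lists and markers cannot be set against a background. For the signs, 10150 of the 20486 genes tested had a value above 0. The 11 marker lists of liver and other cell types also had 0 calls and 0 of 66 genes past limma's adjusted p, with 8 at an unadjusted p under 0.05. The 11 Kupffer cell markers had positive values in 11 of 11 cases (median 0.29, highest *Marco* at 0.94, limma adjusted p = 0.622), and their mean level was 10.08 to 10.97 in fed and 9.68 to 10.23 in fasted *p110α*hep+/+ mice, and 9.93 to 10.51 and 10.19 to 10.47 in *p110α*hep-/- mice. Their part in the results above was not tested.

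The same interaction was then read in the 24 mice on HFD, which share no array with those on CTRL diet. On HFD, 280 genes were called (1.37%). Of the 269 genes called on CTRL diet, 215 had the same sign on HFD (79.9%, against 54.2% of all genes), 31 were called there with the same sign and 0 were called with the opposite sign. The median interaction of the 128 positive genes was 0.93 on CTRL diet and 0.30 on HFD, and that of the 141 negative genes was -0.74 and -0.26. Since the genes were chosen for their values on CTRL diet, smaller values in other mice follow in part from that choice. The test of the difference itself, the interaction on CTRL diet minus that on HFD, called 71 genes (0.347%), and 18 of them were among the 269. That count fell to 8 without array weights, 8 without the filter on dim probes and 20 without the washing correction, and it was 33 to 101 with 1 CTRL diet array left out (HFD arrays were not left out, of which replicate 3 of fed *p110α*hep-/- mice had a weight of 0.354) and 0 within either washing batch, where limma gave 1389 and 1993 genes an unadjusted p under 0.05.

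*Fabp5* had the largest such difference, with an interaction of 3.98 on CTRL diet and 0.17 on HFD (difference 3.81, standard error 0.58, limma adjusted p = 0.000286). *Agpat9* had 1.73 and -0.05 (limma adjusted p = 0.0477), and *Hsd17b7* 0.92 and -0.02 (limma adjusted p = 0.0272). Of the 40 genes of the oxidation list, 4 were called for the difference, against 0.347% of all genes. These were *Decr1*, *Hadha*, *Acaa1a* and *Slc25a20*, with values of 0.46 to 0.54 on CTRL diet and -0.28 to -0.18 on HFD (limma adjusted p = 0.0297 for *Decr1* and *Hadha* and 0.0359 for *Acaa1a* and *Slc25a20*). The median of that list was 0.38 on CTRL diet and -0.09 on HFD. *Cidec* (3.49 and 0.55, limma adjusted p = 0.0999), *Pdk4* (2.80 and 1.42, limma adjusted p = 0.444) and *Acot2* (2.01 and 0.34, limma adjusted p = 0.122) did not pass this test.

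For lipogenesis genes without *Pnpla3* the list median was 0.53 on CTRL diet and 0.46 on HFD, 6 of the 21 genes were called on each diet, and 0 were called for the difference in the limma fit. *Acly* had 0.86 and 1.93 (difference -1.06, limma adjusted p = 0.115) and *Fasn* 0.74 and 1.84 (difference -1.10, limma adjusted p = 0.192). *Fgf21* had 1.52 and 1.57, and *Slc22a7* -1.59 and -1.72.

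**Figure D5:**
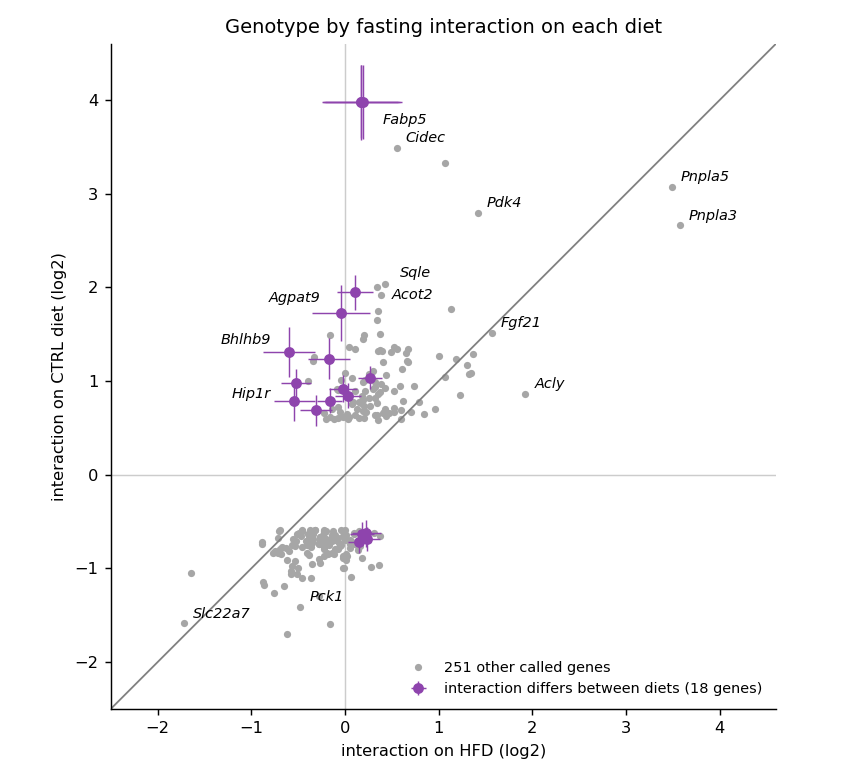
Interaction on HFD (horizontal axis) and on CTRL diet (vertical axis), in log2 units, for the 269 genes called on CTRL diet, with equal values on the diagonal line. The 18 genes called for the difference between diets are drawn with standard errors, and *Fabp5* lies at 3.98 on CTRL diet and 0.17 on HFD, while *Fgf21* lies near the diagonal and *Acly* below it. The positions of *Pnpla3* and *Pnpla5* depend on the background floor.

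Each slide held 1 array of every group, so that the interaction can be read on each of 6 slides. Of the 269 called genes, 187 had the same sign on all 6 (69.5%, against 9.48% of all genes), a description of the same arrays that gave the calls. The arrays were washed in 2 batches of 3 arrays per group. Fitted within a batch, 107 genes were called in washing batch 1 and 17 in washing batch 2, with 62 and 14 of the 269 among them, and the 269 genes had their direction in each. Each batch is part of the arrays that gave the calls, so the shared direction is again a description and no separate test. *Fabp5* gave 3.89 and 3.65 in the 2 batches, *Cidec* 3.17 and 3.54, *Pdk4* 2.55 and 2.93, *Ehhadh* 1.33 and 1.13, and *Pck1* -1.11 and -1.62. With 3 arrays per group, *Fabp5* passed the adjusted p in both batches (limma adjusted p = 0.00271 and 0.00754), *Cidec* in batch 2 (0.0895 and 0.0417) and *Pdk4*, *Ehhadh* and *Pck1* in neither. The list median was 0.42 and 0.29 for PPARα targets and 0.08 and 0.49 for cholesterol synthesis. For lipogenesis it was 0.31 and 0.63 over 22 genes, *Pnpla3* included, and 0 of the other 21 were called in either batch. The batch medians were not worked out without *Pnpla3*.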

How the data were processed

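Liver RNA of 48 mice was measured on 1-colour Agilent SurePrint G3 mouse arrays, 1 mouse per array, and the 24 arrays of CTRL diet carry the results. The authors deposited the scanner intensity of each spot, extracted with Agilent Feature Extraction 10.10.1.1, and a table of log2 values which, per their methods, was filtered, log2 transformed, corrected for the washing bath and quantile normalized. The main values were rebuilt from the deposited median intensities in that order and correlated at 0.9994 or above with the deposited log2 table, which served as an alternative. Control spots were left out, and 92 to 151 outlier spots per array were set to missing. A probe was kept if well above background on 5 of 6 arrays of any of the 8 groups (30793 of 56605 probes), and a gene took its brightest probe. Background was not subtracted, so changes of dim genes are understated.

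Models were fitted in R 4.3.3 with limma 3.58.1 over all 48 arrays, with array weights, 1 coefficient per group, and Benjamini-Hochberg adjustment over the probes kept. A gene was called at an adjusted p of at most 0.05 and over 1.5-fold. All tests were two-sided. Scripts were tested on simulated data. Precision is limited by the 6 arrays per group. Of the 20486 genes, 15520 had a name in RefSeq, and other names are those of the array design. Named genes were the 12 most positive and 12 most negative called and well-detected genes, up to 6 called genes with an undetected group, *Pik3ca*, called or leading members of the gene lists and genes that the study discusses. *Agpat9*, *Sesn3*, *Gys2*, *Sdf2l1*, *Marco*, and the members past the adjusted p alone, were singled out after their values were seen. Members and lists were chosen with earlier results of these data known. Alternatives covered background correction, scaling, the deposited table, the dim-probe filter, the washing batch, slide and replicate blocks, array weights, the CTRL arrays alone, the choice of probe, the fold threshold and each of the 24 CTRL arrays left out (HFD arrays were not left out). Leaving out replicates 5 and 6 of the fasted *p110α*hep-/- group together was chosen after seeing the data. Some genes of the lists are counted but not reported by name here.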

Additional observations from a re-analysis of the deposited data

Results flagged for a closer look

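In 268 sets of 6 mice (67 named genes in 4 groups), 13 had a single mouse far from the other 5, by the gap to its nearest neighbour as a share of the range. Chance gives about 1 in 20 such sets. In fed *p110α*hep-/- mice these were *Rad51b* in replicate 2 (10.76, next 8.07), *Igfbp2* in replicate 2 (15.74), *Pik3ca* in replicate 2 (13.02, the lowest of its group), *Car1* in replicate 1 (9.22), *Acly* in replicate 4 (14.90, next 14.23), and ENSMUST00000167899 and *2310061N02Rik* in replicate 5 (5.77 and 5.96). In fasted *p110α*hep-/- mice it was *Me1* in replicate 6 (11.51). In fed *p110α*hep+/+ mice, replicate 2 stood apart for *Acss2* (12.08, next 12.97) and *Enho* (11.79, next 10.35). In fasted *p110α*hep+/+ mice these were *Inhbe* in replicate 5 (12.86), *Hsd17b7* in replicate 6 (11) and *Btg2* in replicate 2 (9.16).

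For 18 of the 269 called genes, the interaction on CTRL diet minus that on HFD itself passed the limma test with over 1.5-fold. The difference was positive for 14 of them. It was 3.81 for *Fabp5*, 3.82 for NAP111439-1 and 3.79 for NAP114472-1, which may bind the same transcript. It was 1.91 for *Bhlhb9*, 1.84 for an unnamed feature on chromosome 2, 1.77 for *Agpat9*, 1.498 for *Hip1r*, which links clathrin coats to actin, 1.41 for *Fbf1* and 1.33 for *Casc4*. It was 1.00 for AK141540, 0.96 for *Slc22a21*, a carnitine transporter, 0.94 for *Hsd17b7*, 0.81 for an unnamed feature on chromosome 8 and 0.77 for the phospholipase gene *Ddhd2*. It was negative for *1110035H17Rik* (-0.92), *Car8* (-0.87), *Slc9b2* (-0.85) and AK053246 (-0.81).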

How the results depend on the processing

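The 269 calls changed in number with several settings. Without the filter on dim probes, 162 genes were called, 313 passed the adjusted p alone (803 in the reported fit) and 8 were called for the difference between diets (71 in the reported fit). Without array weights these counts were 164, 361 and 8. Without the washing correction, 515 passed the adjusted p alone and 20 were called for the diet difference. Within washing batch 1 the counts were 107, 117 and 0, and within washing batch 2 they were 17, 17 and 0, where limma gave 1389 and 1993 genes an unadjusted p under 0.05 for the diet difference. At a 2-fold threshold, 74 genes were called, and 17 for the diet difference. Leaving out 1 CTRL diet array (HFD arrays were not left out) gave 206 (without fed *p110α*hep-/- replicate 5) to 369 (without fed *p110α*hep+/+ replicate 2) called genes, 494 to 1027 past the adjusted p alone (534 without fed *p110α*hep-/- replicate 6), and 33 to 101 for the diet difference. That last count was 33 without fed *p110α*hep-/- replicate 3, 37 without replicate 5, 44 without replicate 6, 37 and 34 without fed *p110α*hep+/+ replicates 1 and 3, and 46 without fasted *p110α*hep+/+ replicate 6. The cause was not tested. Without replicates 5 and 6 of the fasted *p110α*hep-/- group, a choice made after seeing the data, the 3 counts were 283, 851 and 80. *Acacb* changed sign with the median over its probes (-0.060, limma adjusted p = 0.889). Apart from 3 genes under that setting, the 269 genes kept their direction in each alternative in which they were measured. The alternatives reuse the arrays that gave the calls, so this is a description. Of 57 called genes named here, 42 were called with each CTRL diet array left out, and of 2672 values of named genes under alternatives, 2341 stayed on the same side of the threshold with the same sign, 7 of uncalled genes turned sign (6 of *Cyp4a14* and 1 of *Scd1*) and 323 lost the call.

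Replicate numbers did not pair the mice: deviations of same-numbered mice correlated at -0.351 to 0.185. With a replicate block, 248 genes were called, 682 passed the adjusted p alone and 51 were called for the diet difference. Signal near background limits *Pnpla3*, *Pnpla5*, *Rtbdn*, *Chrna4*, *2310061N02Rik* and ENSMUST00000167899.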

Other observations

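The following called genes were chosen after their values were seen. *Crat*, carnitine acetyltransferase, gave 0.85 (limma adjusted p = 0.0103, standard error 0.20), whereas the carnitine transporter genes *Slc22a5* and *Slc22a21* gave 0.72 (limma adjusted p = 0.0115) and 0.79 (limma adjusted p = 0.000359). *Slc22a5* was at 12.2 to 12.81 in fasted *p110α*hep-/- mice, above the 11.52 to 11.95 of fasted *p110α*hep+/+ mice, and the fed groups overlapped. *Slc13a5*, the citrate transporter, gave 1.21 (limma adjusted p = 0.0137), with fasted *p110α*hep-/- mice at 7.86 to 9.01 and fasted *p110α*hep+/+ mice at 6.01 to 7.32.

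*Lepr*, the leptin receptor gene, was higher in *p110α*hep-/- mice in both states without overlap, at 10.55 to 10.89 fed and 11.04 to 11.81 fasted against 9.87 to 10.01 and 9.73 to 9.96, and its interaction was 0.73 (standard error 0.13, limma adjusted p = 0.000806). *Scarb1*, the receptor for high-density lipoprotein, gave -0.75 (standard error 0.12, limma adjusted p = 0.000209). *Stat5b*, which carries growth hormone signals, gave -0.69 (standard error 0.13, limma adjusted p = 0.00137), and its fasted *p110α*hep-/- levels of 10.90 to 11.04 lay below those of fasted *p110α*hep+/+ mice at 11.17 to 11.58. *Car3*, an abundant carbonic anhydrase of liver and fat, gave -1.05 on CTRL diet (limma adjusted p = 0.00299) and -1.65 on HFD.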
